A study of Mus musculus with 6 samples.

Results

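The 10 genes described here are used as loading or qPCR references or encode the main cytoskeletal proteins: Actb, Actg1, Gapdh, Tubb5, Tuba1b, Ppia, Tbp, Lmnb1, Lmna and Vim. They were taken by symbol, matched to the Ensembl gene identifiers through the GENCODE M21 names, from the 54886 genes listed in each library. All 10 were found. RNA was sequenced from GC-2spd cells, an established mouse line derived from spermatocytes and labelled with the BALB/c background, in 3 control libraries and 3 libraries of cells exposed for 48 h to fine particulate matter (PM2.5) at 100 μg/mL. The control cells were kept in normal medium according to the labels, with PBS according to the methods, at 0 μg/mL PM2.5. All cells of both groups grew in the same serum-containing medium, and the particles were a certified urban dust material. Nothing in the labels says that the libraries of a group came from separate cultures, so the p-values measure the spread between these libraries, which may be technical. The study measured Cyp1a1 mRNA by qPCR against Actb and used β-actin and lamin B1 as protein loading controls, so the question was how steady these transcripts were in the RNA-seq libraries.

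A reference gene serves as a ruler: the signal of a target is divided by it, so any change of the reference passes into the result with the opposite sign. Actins polymerise into the microfilaments of the cell cortex and stress fibres, tubulins α and β pair to build microtubules, vimentin forms the intermediate filaments of mesenchymal and many cultured cells, and lamins line the inner nuclear membrane. Gapdh encodes a glycolytic enzyme, Ppia the prolyl isomerase cyclophilin A, and Tbp the TATA-binding protein that helps to place RNA polymerase at promoters.

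Several of these genes have relatives or processed pseudogenes that differ from them in few bases, which bears on the values of those genes because a read that fits several genes can be counted for one, for none or for another. The first 90 coding bases of 3 genes are shown for that reason, read from the GENCODE M21 transcripts on GRCm38, with capitals at the positions where the actins differ. The actins Actb (chr5:142903115-142906754, minus strand) and Actg1 (chr11:120345690-120348542, minus strand) start as follows.
Actb: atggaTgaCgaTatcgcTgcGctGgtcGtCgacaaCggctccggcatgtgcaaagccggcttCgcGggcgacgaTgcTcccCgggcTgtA
Actg1: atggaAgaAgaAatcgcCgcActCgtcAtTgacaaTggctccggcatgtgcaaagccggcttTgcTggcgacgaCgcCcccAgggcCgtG
The start of Gapdh (chr6:125161715-125166467, minus strand) carries no capitals, since the processed pseudogene Gm7336 is identical to it here.
Gapdh: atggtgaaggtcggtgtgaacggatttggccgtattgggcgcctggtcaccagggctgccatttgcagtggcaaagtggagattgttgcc

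Over their whole coding sequences of 1128 bases, Actb and Actg1 differed at 128 positions (88.7% identical), and the longest run without a difference was 62 bases. Gm7336 matched the 1002 coding bases of Gapdh without a difference, and the pseudogene Gm5559 differed from them at 1 position. Counted as 31-base sequences, 78.7% of those of Tuba1b, 40.2% of Actg1, 28.1% of Gapdh, 23.6% of Actb, 20.9% of Ppia and 18.5% of Tbp also occurred in the transcripts of another gene. The shares were 3.5% for Tubb5, 1.36% for Lmna and 0.187% for Vim, and no such sequence was found for Lmnb1. Lmnb1, Vim, Lmna and Tubb5 were thus the members whose reads were least open to a split between genes. Pdcd2, on the opposite strand within Tbp, was listed at 0 in all 6 libraries. Gm49450 and Gm41396 overlap Tuba1b, Gm23419 and Mir6935 overlap Actg1, and Iffo1, on the opposite strand, overlaps Gapdh. Whether the counting used strand is not given in the sources used here.

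The files hold FPKM, fragment counts corrected for gene length and sequencing depth. Multiplied by exon length the values gave whole counts, called reads here, and totals between 16209340 and 18003193 reads per library. Control replicate 2 stood apart before any test. Its correlation with the other 5 libraries on log2(FPKM + 1) across the genes tested was between 0.732 and 0.780, against 0.95 to 0.992 among those 5, and mitochondrial genes held 14.5% of its reads against 1.65% to 1.95%. The fold change and spread of each of the 10 genes are therefore given with and without it. Of 15 markers of spermatocytes and later germ cells, 0 reached a mean FPKM of 1, 6 were at 0 in every library (Spo11, Hormad1, Piwil1, Dazl, Tnp1 and Pgk2) and the highest, Sycp3, had a mean of 0.667 FPKM, so the markers that define the labelled cell type were almost absent. Their sum was nevertheless highest in control replicate 2, at 2.69 FPKM, against 0.452 FPKM in the lowest control and 0.273 to 0.612 FPKM in the PM2.5 libraries. The summed markers of other cell types were also set beside control replicate 2. Of 5 macrophage markers, 3 (Ptprc, Adgre1 and Itgam) were at 0 in every library, and the sum, almost all of it Cd68, was 15.5 FPKM in control replicate 2, 0.796 FPKM in the lowest control and 1.10 to 1.87 FPKM in the PM2.5 libraries. The 5 peritubular and smooth muscle markers, mainly Acta2, summed to 89.8 FPKM in control replicate 2 and to 59.5 to 61.2 FPKM in the PM2.5 libraries, with 43.5 FPKM in the lowest control. The 8 Sertoli markers (18.0 to 19.2 FPKM in the controls, 12.3 to 23.7 FPKM after PM2.5) and the 6 Leydig markers (2.01 to 2.59 and 1.74 to 1.89 FPKM) did not set that library apart. The part of other cells in the results was not tested.

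Over the tested genes above 0 in all libraries, control replicate 2 deviated from the mean log2 FPKM of the other 5 by a median of 0.92 in either direction. The share of these genes that deviated less was 99.9% for Gapdh, 93.6% for Actg1, 83.9% for Actb, 64.5% for Vim and 51.7% for Lmna. It was 42.4% for Lmnb1, 35.0% for Tuba1b, 23.8% for Tbp, 17.6% for Tubb5 and 4.74% for Ppia. The actins went opposite ways in that library. Actb had 819, 3502 and 882 FPKM in control replicates 1, 2 and 3 and 901, 814 and 889 FPKM in PM2.5 replicates 1, 2 and 3. Control replicate 2 was 4.07 times the geometric mean of the other 5 libraries, which lay within a factor of 1.11 of each other. The groups overlapped. PM2.5 against control gave a log2 fold change of -0.65 (limma, standard error 0.62, 95% confidence interval -2.17 to 0.86, adjusted p = 0.875). With control replicate 2 left out the value was 0.03 (standard error 0.10, interval -0.24 to 0.30).

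Actg1, which encodes the cytoplasmic γ-actin, went the other way in the same library. It had 437, 59.8 and 466 FPKM in the control replicates and 419, 406 and 420 FPKM in the PM2.5 replicates. This time control replicate 2 was the lowest, at 0.139 of the geometric mean of the other 5, and those 5 lay within a factor of 1.15. Its log2 fold change was 0.84 (standard error 0.82, interval -1.15 to 2.83, adjusted p = 0.875 from limma) with all libraries and -0.12 (standard error 0.09, interval -0.36 to 0.11) without control replicate 2. The ratio of Actb to Actg1, which no scaling of libraries can alter, was between 1.87 and 2.15 in 5 libraries and 58.6 in control replicate 2. Among the other 5 libraries, all 3 PM2.5 values of Actg1 lay below both controls.

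**Figure D1:**
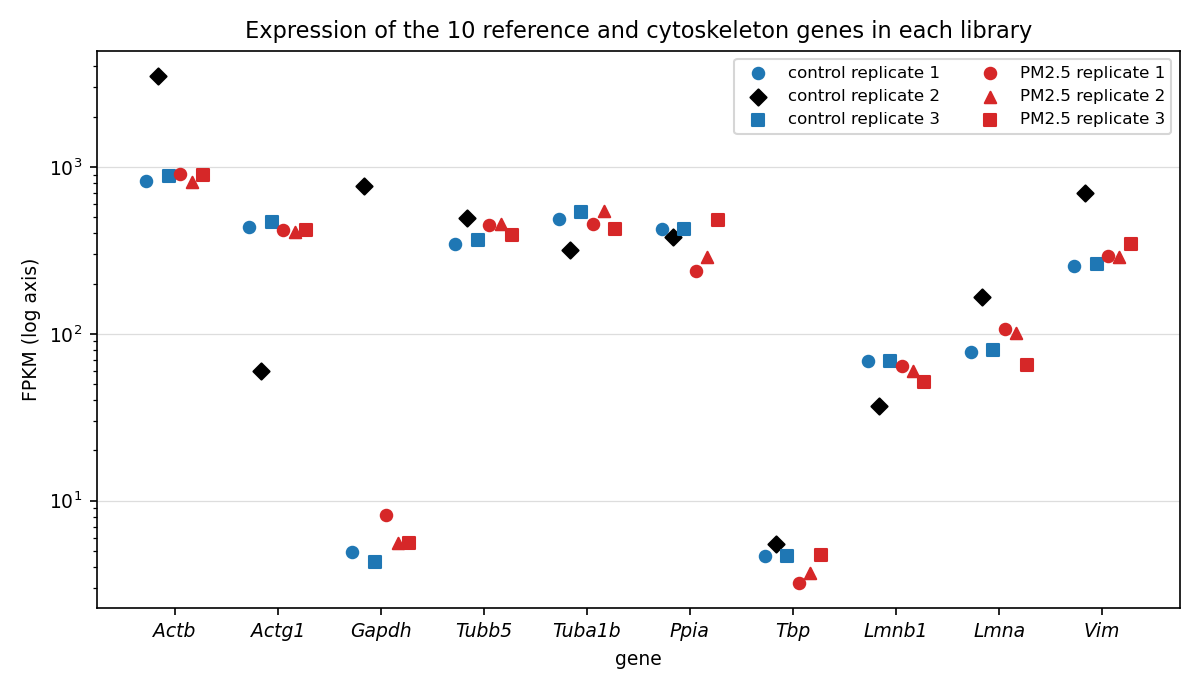
FPKM of the 10 genes (log axis) in each library, with blue points for control replicates 1 and 3, black diamonds for control replicate 2 and red points for the PM2.5 replicates. Control replicate 2 lies far above the others for Actb (3502 FPKM) and Gapdh (764 FPKM) and far below them for Actg1 (59.8 FPKM), while it falls among them for Ppia.

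The tubulins varied less. Tubb5, a β-tubulin expressed in most dividing cells, had 345, 492 and 365 FPKM in the control replicates and 448, 453 and 393 FPKM in the PM2.5 replicates. The highest and the lowest library were both controls, and the highest was 1.43 times the lowest, the smallest such ratio among the 10 genes. Its log2 fold change was 0.12 (standard error 0.28, interval -0.55 to 0.79, adjusted p = 0.907 from limma). Once control replicate 2 was left out all 3 PM2.5 libraries lay above both controls, with a log2 fold change of 0.28 (standard error 0.11, interval -0.0045 to 0.56, unadjusted p = 0.0526 from limma).

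Tuba1b had 484, 318 and 534 FPKM in the control replicates and 457, 545 and 427 FPKM in the PM2.5 replicates. Again control replicate 2 was the lowest, and the other 5 overlapped between the groups. Its log2 fold change was 0.12 (standard error 0.32, interval -0.65 to 0.89) and was -0.10 without control replicate 2 (interval -0.46 to 0.26). The 13 genes that share at least 5% of its 31-base sequences held between 35.0% and 44.7% of the reads summed over them and Tuba1b, mostly in Tuba1a and Tuba1c, and control replicate 2 at 37.2% was no exception. The split of reads among these tubulins was not tested.

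Among the intermediate filament genes, Vim had 255, 698 and 262 FPKM in the control replicates and 291, 288 and 343 FPKM in the PM2.5 replicates. Control replicate 2 was 2.44 times the geometric mean of the other 5, and the log2 fold change was -0.23 (standard error 0.45, interval -1.34 to 0.88). Without that library the PM2.5 values lay above both controls and the log2 fold change was 0.25 (standard error 0.12, interval -0.06 to 0.55), so the sign depended on that library.

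Lmna, the source of lamins A and C, had 77.8, 166 and 80.3 FPKM in the control replicates and 107, 101 and 65.3 FPKM in the PM2.5 replicates. The highest library was control replicate 2 and the lowest PM2.5 replicate 3, and the groups overlapped with and without control replicate 2. Its log2 fold change was -0.18 (standard error 0.39, interval -1.13 to 0.76) with all libraries, 0.17 (standard error 0.24, interval -0.44 to 0.78) without control replicate 2 and 0.04 without PM2.5 replicate 3. Both PM2.5 replicates 1 and 2 were above control replicates 1 and 3, and PM2.5 replicate 3 was below them.

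Lmnb1, which encodes lamin B1, had 68.8, 36.8 and 68.9 FPKM in the control replicates and 63.9, 60.2 and 51.5 FPKM in the PM2.5 replicates. Its difference between the groups was the smallest of the 10 with all libraries, at a log2 fold change of 0.06 (standard error 0.31, interval -0.69 to 0.81, adjusted p = 0.952 from limma). That value averaged the low control replicate 2, at 0.590 of the geometric mean of the others, with 2 controls that were above all PM2.5 libraries. Over the other 5 libraries the value for Lmnb1 was -0.24 (standard error 0.12, interval -0.55 to 0.07).

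Gapdh had the widest spread. It had 4.94, 764 and 4.32 FPKM in the control replicates and 8.18, 5.59 and 5.56 FPKM in the PM2.5 replicates, which rest on 379, 40940 and 322 reads and on 604, 410 and 415 reads. Control replicate 2 was 137 times the geometric mean of the other 5. In those 5 libraries this glycolytic gene was listed at 4.32 to 8.18 FPKM, beside 3.24 to 4.76 FPKM for the transcription factor gene Tbp.

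The 90 listed genes that share at least 5% of the 31-base sequences of Gapdh, among them Gm7336 and Gm5559, held 517, 1497 and 535 reads in the control replicates and 860, 952 and 543 reads in the PM2.5 replicates. That was 56.7% to 69.9% of the reads of Gapdh and these genes together in 5 libraries, and 3.53% in control replicate 2. Reads that fit several genes and were counted for none are missing from these sums. Gm7336 had 72, 38 and 72 reads in the control replicates and 292, 403 and 76 reads in the PM2.5 replicates. PM2.5 replicates 1 and 2 were thus high, and PM2.5 replicate 3 was near control replicates 1 and 3. Gm5559 was instead highest in control replicate 2, like Gapdh. It had 91, 666 and 79 reads in the control replicates and 120, 123 and 116 reads in the PM2.5 replicates. Gm13394 was also highest there, with 247 reads. The part of shared sequence in these values was not tested.

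For Gapdh the log2 fold change was -1.98 (standard error 1.93, interval -6.68 to 2.73, adjusted p = 0.875 from limma). Without control replicate 2 it was 0.39 (standard error 0.18, interval -0.09 to 0.86), and the 3 PM2.5 libraries lay above both controls.

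**Figure D2:**
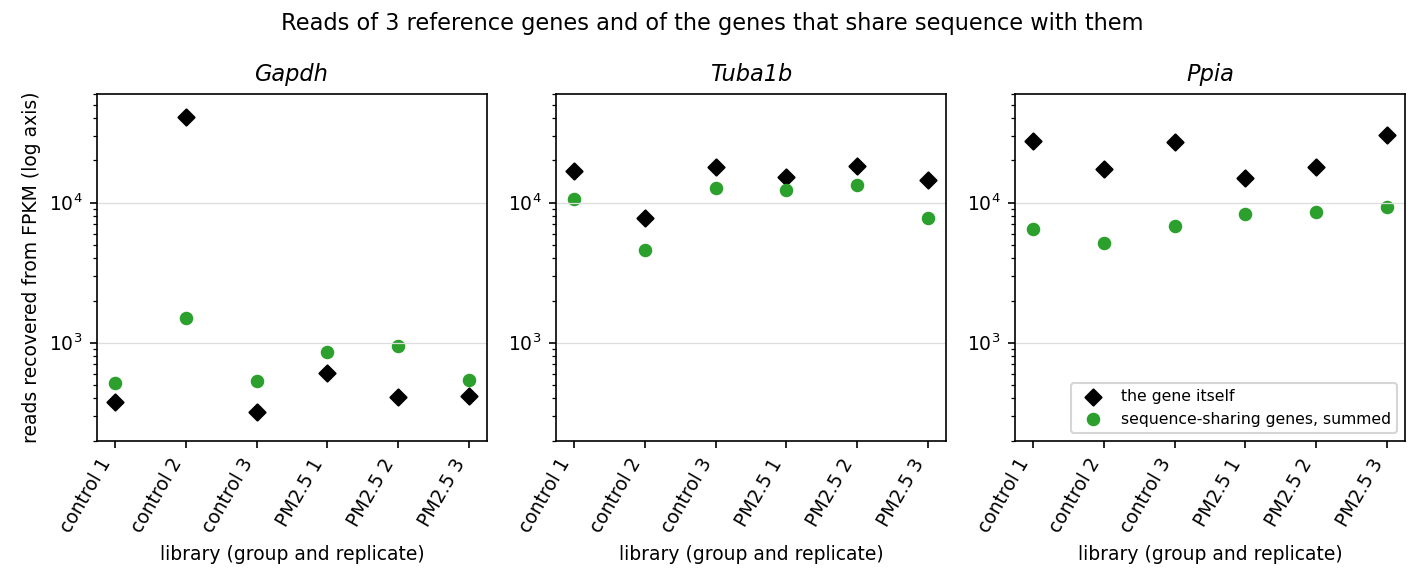
Recovered reads (log axis) of Gapdh, Tuba1b and Ppia in each library (black diamonds) and the summed reads of the genes that share at least 5% of their 31-base sequences (green points). For Ppia most of the summed reads are of the protein-coding gene Gclm. For Gapdh the order is turned in control replicate 2, with 40940 reads in the gene and 1497 in the others, while Tuba1b and Ppia exceed their sequence-sharing genes in all 6 libraries.

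Ppia was the one member whose level in control replicate 2 sat among the other libraries. It had 425, 379 and 427 FPKM in the control replicates and 239, 288 and 480 FPKM in the PM2.5 replicates. PM2.5 replicates 1 and 2 were the lowest of the 6 and PM2.5 replicate 3 the highest, so the spread was within the exposed group: the SD of log2 FPKM was 0.52 over the PM2.5 libraries and 0.10 over the controls. PM2.5 replicate 3 also stood apart from PM2.5 replicates 1 and 2 in its correlations over all genes tested, so this split was not particular to Ppia. PM2.5 and control differed by a log2 fold change of -0.35 with all libraries (standard error 0.34, interval -1.17 to 0.47), -0.41 without control replicate 2 (interval -1.20 to 0.39), -0.64 without PM2.5 replicate 3 (standard error 0.26, unadjusted p = 0.0621 from limma) and -0.14 without PM2.5 replicate 1 (standard error 0.40, unadjusted p = 0.741 from limma).

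The processed pseudogene Gm10123, which holds 12.8% of the 31-base sequences of Ppia, had 1604, 1557 and 1904 reads in the control replicates and 2908, 2855 and 2059 reads in the PM2.5 replicates. Its reads were thus highest in the 2 libraries in which the FPKM of Ppia was lowest. Ppia itself had 27637, 17264 and 27028 reads in the control replicates and 14976, 17925 and 30454 reads in the PM2.5 replicates. The 11 genes that share at least 5% of its 31-base sequences held part of the reads summed over them and Ppia. That part was 18.9% to 23.5% in the controls and PM2.5 replicate 3, and 35.6% and 32.4% in PM2.5 replicates 1 and 2. Most of the reads of these 11 genes were of Gclm, a protein-coding gene that holds 6.27% of the 31-base sequences of Ppia. Gclm had 4498, 3354 and 4528 reads in the control replicates and 5160, 5489 and 6883 reads in the PM2.5 replicates. These shares are thus not of pseudogenes alone. The split of reads between Ppia and these genes was not tested.

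Tbp had 4.70, 5.51 and 4.65 FPKM in the control replicates and 3.24, 3.68 and 4.76 FPKM in the PM2.5 replicates, from 785 to 1183 reads. As for Ppia, PM2.5 replicates 1 and 2 were the lowest and PM2.5 replicate 3 was above control replicates 1 and 3. The log2 fold change was -0.29 (standard error 0.19, interval -0.76 to 0.18), the narrowest interval of the 10 with all libraries. It was -0.22 without control replicate 2, -0.41 without PM2.5 replicate 3 (standard error 0.17, unadjusted p = 0.0657 from limma) and -0.19 without PM2.5 replicate 1 (standard error 0.24, unadjusted p = 0.454 from limma).

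All 10 genes passed the filter of a mean of at least 1 FPKM that left 11884 genes to test. With all 6 libraries, 0 of the 10 were called by limma (adjusted p under 0.05 with a log2 fold change beyond 1 in either direction), against 0.0926% of the genes tested. At an unadjusted p under 0.05, limma had 0 of the 10, against 3.8% of the genes tested. Voom in limma on the recovered reads called 0 of all 11740 genes it tested, so its 0 of the 10 says nothing about these genes. The groups did not overlap for 0 of the 10, against 15.2% of the genes tested. Two-sided exact permutation tests of the difference in mean log2 FPKM gave p between 0.3 and 1 (all 1 after adjustment over the 10 tests), where 3 against 3 libraries cannot go below 0.1.

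In the 5 libraries without control replicate 2, limma called 0 of the 10, against 0.707% of the genes tested, and 0 had an unadjusted p under 0.05, against 15.9%. The groups did not overlap for 5 of the 10, against 37.3% of the genes tested: Gapdh, Tubb5 and Vim were above and Actg1 and Lmnb1 below the controls. The median log2 fold change of the 10 was -0.21 with all libraries and -0.04 without control replicate 2, beside 0.02 and -0.01 over all genes tested. Since these are whole-culture extracts, fewer cells with a transcript and less of it per cell cannot be told apart.

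**Figure D3:**
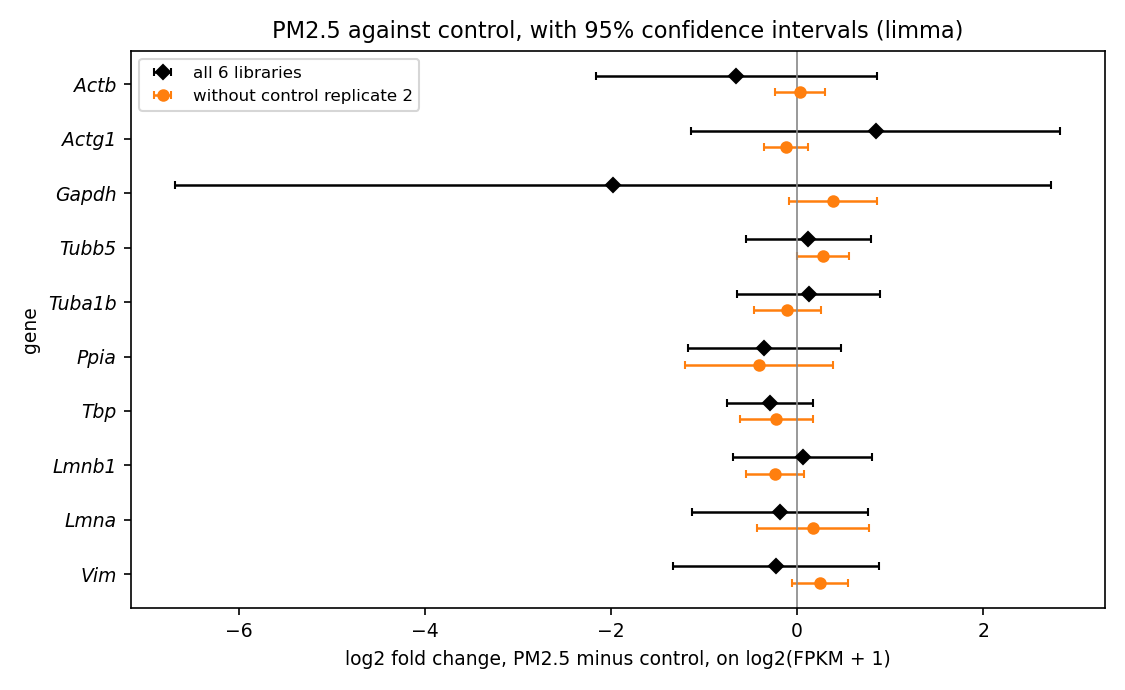
Log2 fold change of PM2.5 against control with 95% confidence intervals from limma, with all 6 libraries (black diamonds) and without control replicate 2 (orange points). Every interval with all libraries includes 0, those of Gapdh, Actg1 and Actb are the widest, and all but those of Ppia and Lmna narrow to less than 1 log2 unit without control replicate 2.

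The steadiness of a reference is better read from its spread over all libraries than from a test of the groups. The SD of log2 FPKM over the 6 libraries was 0.20 for Tubb5, 0.28 for Tbp, 0.29 for Tuba1b, 0.35 for Lmnb1, 0.39 for Ppia, 0.47 for Lmna, 0.55 for Vim, 0.83 for Actb, 1.16 for Actg1 and 2.91 for Gapdh. The median over the 11605 tested genes above 0 in all libraries was 0.47. Of these genes, 11.6% were steadier than Tubb5, 79.7% were steadier than Actb and 99.9% were steadier than Gapdh.

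Without control replicate 2 the order was different. Actb had an SD of 0.07, Actg1 of 0.08, Tuba1b of 0.15, Vim and Lmnb1 of 0.17, Tubb5 of 0.18, Tbp of 0.25, Lmna of 0.29, Gapdh of 0.34 and Ppia of 0.43, beside a median of 0.23 over all genes. The share of steadier genes dropped to 4.51% for Actb and 5.82% for Actg1, and it was 84.1% for Ppia and 74.7% for Gapdh. Actb moved from rank 8 to rank 1 and Tubb5 from rank 1 to rank 6 among the 10. The difference between these orders thus rests on control replicate 2. Both orders are under the deposited scaling.

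**Figure D4:**
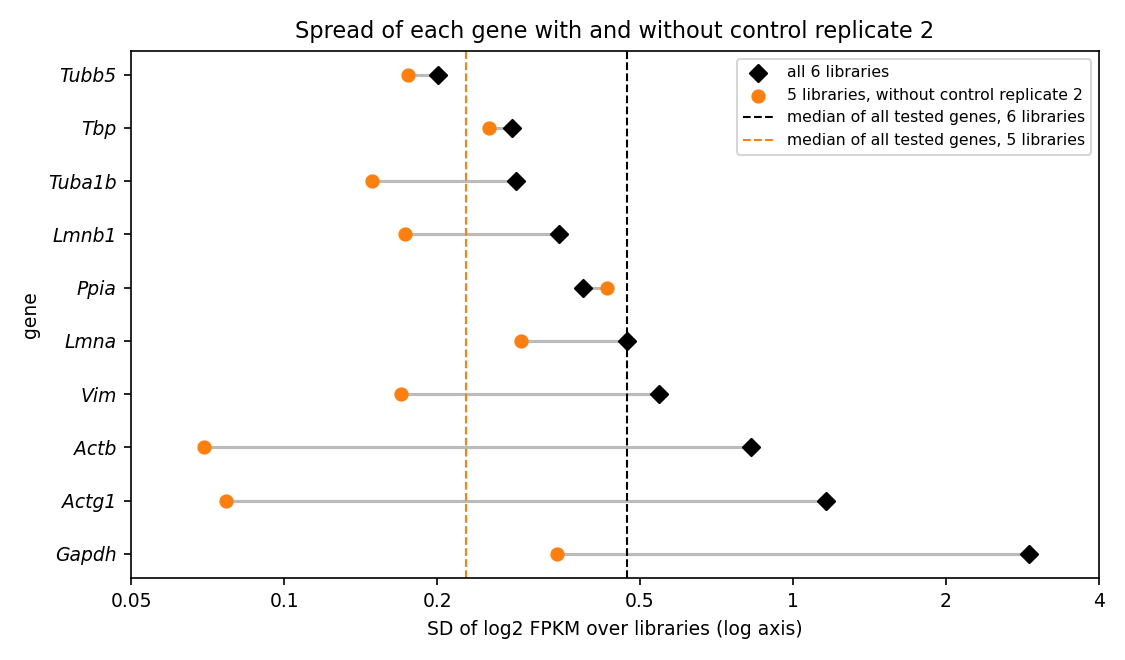
SD of log2 FPKM over libraries (log axis) for each gene with all 6 libraries (black diamonds) and without control replicate 2 (orange points), with dashed lines at the medians of all tested genes, 0.47 and 0.23. Actb and Actg1 lie to the right of the first line and far to the left of the second, and Ppia is the single gene whose SD is larger without control replicate 2.

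A measure that compares the members only with each other does not depend on how libraries were scaled. The stability value M, the mean SD of the log2 ratio of a gene to the other 9, was lowest for Tubb5 (0.82) and Tbp (0.83) and highest for Gapdh (2.89) over 6 libraries. In the other 5 libraries M was lowest for Actb and Actg1 (both 0.24) and highest for Ppia (0.50). Of the 45 pairs, 10 had an SD of the log2 ratio under 0.5 over 6 libraries and 40 without control replicate 2.

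The steadiest pair over 6 libraries was Tuba1b with Lmnb1, whose ratio was 7.04, 8.63 and 7.76 in the control replicates and 7.15, 9.05 and 8.28 in the PM2.5 replicates (SD of log2 ratio 0.15). Control replicate 2 was low for both genes and their ratio there fell inside the range of the PM2.5 libraries. Ppia with Tbp was next (SD 0.21), a pair that shared the low values of PM2.5 replicates 1 and 2. The widest pair was Actg1 with Gapdh (SD 4.07).

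By level, the medians over 6 libraries on the FPKM scale, which is per length, ran from Actb (885) through Tuba1b (471), Tubb5 (421), Actg1 (419), Ppia (402) and Vim (290) to Lmna (90.4), Lmnb1 (62.1), Gapdh (5.57) and Tbp (4.67). The length is that of all annotated exons of a gene together, such as 4133 bases for Gapdh and 13576 for Tbp. It lowers the FPKM of genes whose main transcript is shorter. The ranges of neighbours from Tuba1b to Vim overlapped, as did those of Lmna and Lmnb1, and of Gapdh and Tbp. The range of Gapdh also spanned that of Lmnb1 through control replicate 2. Actb lay above all other members in every library. The 5 steadiest genes of the table with a mean of at least 10 FPKM were Mrfap1, Cnn3, Pacsin2, Ankrd13a and Slc37a3, with SDs of log2 FPKM from 0.03 to 0.04 over 6 libraries. Mrfap1 had 252, 260 and 253 FPKM in the control replicates and 250, 245 and 257 FPKM in the PM2.5 replicates, and Cnn3, which encodes the actin-binding protein calponin 3, had values between 98.8 and 105 FPKM. These genes were ranked on the same 6 libraries, so their steadiness is a description.

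The genes whose pattern over the 6 libraries was most like that of Actb were Snrpg, Gtf3c2 and Rpl37a, with an SD of the log2 ratio to Actb of 0.04, 0.05 and 0.07. Those most like Lmnb1 were Acsf2, Mcm3ap and Ncapd2, with 0.04, 0.07 and 0.07. The likeness to Actb rested on the high control replicate 2: Snrpg, a component of spliceosomal snRNPs, ranged from 49.0 to 223 FPKM.

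Rescaling each library so that one gene is level shows what a choice of reference does to all others. Under the deposited scaling, 11 of 11884 genes were called (4 higher and 7 lower) and the median log2 fold change was 0.02. Scaled to Actb, 2 genes were called and the median became 0.51. Scaled to Actg1 it became -0.75 with 0 genes called, and scaled to Gapdh 1.02 with 0 called. Tubb5 and Tuba1b each moved the median to -0.09 (4 and 0 genes called), Lmnb1 to -0.04 (0 called), Lmna to 0.16 (0 called), Vim to 0.18 (2 called), and Ppia and Tbp to 0.32 (4 and 2 called). The geometric mean of all 10 gave 0.23 and 2 called genes. The counts of 0 came from limma with 64 genes at an unadjusted p under 0.05 for Actg1, 29 for Gapdh, 332 for Tuba1b, 395 for Lmnb1 and 230 for Lmna.

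These shifts depended on control replicate 2. When it was left out, an alternative chosen after seeing the data, the median over all genes was -0.04 scaled to Actb, 0.09 to Actg1 and -0.39 to Gapdh, all of the opposite sign to that with 6 libraries. It was -0.25 for Tubb5, 0.07 for Tuba1b, 0.19 for Lmnb1, -0.15 for Lmna, -0.22 for Vim, 0.34 for Ppia and 0.22 for Tbp, and -0.01 for the geometric mean of all 10. Tubb5, Ppia and Tbp kept their sign, and the other 7 references did not. Against 84 called genes under the deposited scaling of the 5 libraries, 101 were called with Actb, 86 with Actg1, 281 with Gapdh, 126 with Tubb5, 167 with Tuba1b, 59 with Lmnb1, 125 with Vim, 29 with Tbp, 10 with Ppia and 0 with Lmna (663 at an unadjusted p under 0.05 in limma).

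**Figure D5:**
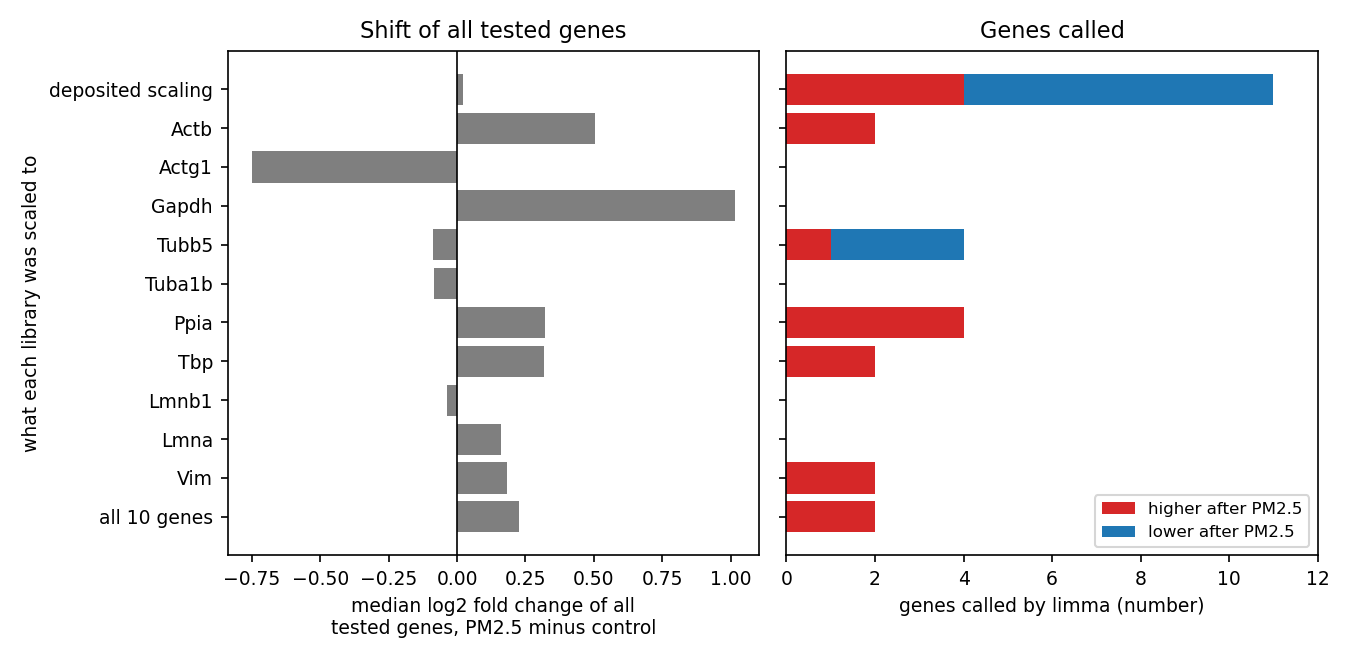
Median log2 fold change of all tested genes (left) and number of genes called by limma, higher in red and lower in blue (right), when all 6 libraries were scaled as deposited, to each of the 10 genes or to their geometric mean. The median runs from -0.75 with Actg1 to 1.02 with Gapdh, and each of the scalings to these genes gives at most 4 called genes against 11. Fold changes are on log2(FPKM + 1) after scaling, which understates the shift with Gapdh.

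Cyp1a1, a target of the aryl hydrocarbon receptor, had 2, 0 and 0 reads in the control replicates and 306, 302 and 400 reads in the PM2.5 replicates. Per 10000 Actb reads this was 70.9, 78.1 and 93.0 in the PM2.5 replicates, and 0.491 in control replicate 1. The ratio of the groups' summed reads was 828 per Actb read (95% interval 229 to 6844, exact and for counting error only), 391 per Actg1 read (108 to 3236), 422 per Tubb5 read (116 to 3486), 481 per Lmnb1 read (133 to 3975) and 14687 per Gapdh read (4055 to 121437). Without a reference gene it was 465 (129 to 3848). Leaving out control replicate 2 gave a ratio of 336 per Actb read (92.9 to 2781) and between 247 with Gapdh and 435 with Ppia over the 10 references. The direction was the same with each of the 10, and the intervals are wide because the controls hold 2 reads in all.

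The relatives of the members were described from 7 lists. In each of them limma called 0 genes with all libraries, against 0.0926% of all genes tested. Without control replicate 2 it also called 0, against 0.707%. Voom in limma on the recovered reads called 0 of all 11740 genes it tested, so it says nothing about these lists. Of 47 actins and actin regulators, 44 passed the filter. Against 3.8% of all genes tested, 0 of these 44 had an unadjusted p under 0.05. Their median log2 fold change was 0.12, and without control replicate 2 it was 0.02, with 6 genes higher and 3 lower at that unadjusted p, against 15.9% of all genes tested. Cfl1, which encodes the actin-severing protein cofilin, had 372, 1126 and 385 FPKM in the control replicates and 459, 433 and 462 FPKM in the PM2.5 replicates, so control replicate 2 was again the highest.

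Tmsb10, an actin-monomer-binding thymosin, had 27.7, 1895 and 29.0 FPKM in the control replicates and 209, 207 and 31.8 FPKM in the PM2.5 replicates. PM2.5 replicates 1 and 2 were far above control replicates 1 and 3, while PM2.5 replicate 3 was close to them. Zyx, the focal adhesion protein zyxin, had the same pattern in PM2.5 replicates 1 and 2 with a low control replicate 2: 28.8, 15.5 and 31.7 FPKM in the control replicates against 56.3, 56.1 and 31.4 FPKM, with a log2 fold change of 0.91 (unadjusted p = 0.0508 from limma), and 0.60 without control replicate 2. The Arp2/3 subunit gene Arpc1a had a log2 fold change of -0.52 (unadjusted p = 0.0974 from limma), -0.29 without control replicate 2, and its PM2.5 values of 47.4 to 55.6 FPKM were all below the controls.

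Of 18 tubulins, 11 passed the filter. Against 3.8% of all genes tested, 0 of these 11 had an unadjusted p under 0.05. Without control replicate 2 there were again 0, against 15.9%. The median log2 fold change of the 11 tubulins was 0.05, and 0.11 without control replicate 2. Tubb4b was the steadiest of them, with 209, 182 and 211 FPKM in the control replicates and 215, 218 and 173 FPKM in the PM2.5 replicates and an SD of log2 FPKM of 0.14. Tuba1a had 184, 126 and 245 FPKM in the control replicates and 219, 247 and 119 FPKM in the PM2.5 replicates, and Tuba1c had 51.6 to 109 FPKM. Tuba4a had a log2 fold change of 0.42 (unadjusted p = 0.139 from limma), and 0.20 without control replicate 2.

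All 19 genes of the nuclear lamina and envelope passed the filter. With all libraries 0 had an unadjusted p under 0.05, against 3.8% of all genes tested. Without control replicate 2 there was 1 lower at that p, against 15.9%. Tmpo, which encodes the lamina-associated polypeptide 2, had a log2 fold change of -0.01 with all libraries and -0.25 without control replicate 2, and it shared with Lmnb1 a low value in that library (35.1 against 46.4 to 59.3 FPKM). Banf1, whose product binds DNA to the envelope, was high there instead (349 against 160 to 226 FPKM). Syne3 and Rce1 had log2 fold changes of 0.53 and 0.31 with unadjusted p of 0.239 and 0.217 from limma, and of 0.07 and 0.23 without control replicate 2.

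Of 14 other intermediate filament genes 4 passed the filter. Krt80, a keratin, had 0.472, 0.362 and 0.469 FPKM in the control replicates and 2.68, 2.39 and 1.54 FPKM in the PM2.5 replicates. All 3 PM2.5 libraries were higher, at a log2 fold change of 1.14 (unadjusted p = 0.00181, adjusted p = 0.372 from limma), which did not pass the test. It was 1.11 without control replicate 2 (adjusted p = 0.0899 from limma). Every control value of Krt80 was under the filter limit of 1 FPKM, so the gene passed only through its PM2.5 values. Its p-values are therefore no support for a difference. Nes, Krt19 and Prph had log2 fold changes of 0.28, -0.32 and -0.47, each with an adjusted p of 0.875 from limma. Without control replicate 2 these were 0.58, 0.13 and -0.06. Prph passed the filter only through control replicate 2 (3.09 FPKM, against 0.471 to 1.09 FPKM in the other libraries).

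Of 15 cyclophilins 14 passed, with 0 at an unadjusted p under 0.05, against 3.8% of all genes tested. The median log2 fold change of the list was 0.02. Without control replicate 2 it was 0.03, with 1 gene higher at that p, against 15.9%. The median SD of log2 FPKM was 0.21 in this list against 0.47 over all genes tested with 6 libraries, but 0.19 against 0.23 without control replicate 2. Ppid, a heat shock protein partner, had 29.8 to 42.7 FPKM and a log2 fold change of 0.24 (0.30 without control replicate 2), while Ppih and Ppil1 had control replicate 2 at 3.91 and 2.65 times the geometric mean of the others.

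Of 16 genes of TFIID and relatives of TBP 14 passed. Against 3.8% of all genes tested, in this list Taf7 alone had an unadjusted p under 0.05 (0.0236 from limma, adjusted p 0.875). It had 4.29, 7.45 and 3.56 FPKM in the control replicates and 2.22, 2.24 and 2.68 FPKM in the PM2.5 replicates, so that all 3 PM2.5 libraries were below the controls, with a log2 fold change of -0.80 with all libraries and -0.54 without control replicate 2. Taf1, Taf2 and Taf5 had log2 fold changes of 0.01, 0.22 and -0.44 with all libraries and of -0.17, -0.16 and -0.16 without control replicate 2, and control replicate 2 was the lowest library for Taf1 and Taf2 and the highest for Taf5.

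All 39 other genes in common use as references passed the filter. With all libraries 0 had an unadjusted p under 0.05, against 3.8% of all genes tested. Without control replicate 2 there were 7 higher and 3 lower at that p, against 15.9% of all genes tested. Of these 39 genes limma called 0. Rplp0, a ribosomal stalk protein gene, had 1144, 1169 and 1188 FPKM in the control replicates and 1056, 1061 and 1150 FPKM in the PM2.5 replicates, with an SD of log2 FPKM of 0.07 over 6 libraries. It was thus steadier over 6 libraries than each of the 10 members, at a level above all of them but Actb in control replicate 2. The elongation factor gene Eef1a1 had 1062 FPKM in control replicate 2 and 1918 to 2407 FPKM in the other 5 libraries, and Rpl4 had 234 and 491 to 658 FPKM. Alas1, the first enzyme of heme synthesis, had a log2 fold change of 0.44 (unadjusted p = 0.0685, adjusted p = 0.875 from limma), and 0.31 without control replicate 2.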

How the data were processed

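RNA-seq libraries of GC-2spd cells (3 control, 3 PM2.5) were grouped by their titles. The authors prepared NEBNext Ultra libraries, sequenced paired reads on an Illumina Novaseq, mapped them and counted them on genes, and deposited FPKM for each library (the submitters' processing notes name HISAT2 2.0.5, featureCounts 1.5.0-p3 and mm9). GENCODE M21 exon lengths on GRCm38 turned 98.1% to 98.4% of the values under 50 reads into whole reads (within 0.05), so names, lengths, sequences and coordinates come from that annotation. The deposited FPKM were scaled between libraries by size factors of the median-of-ratios kind, lowest in control replicate 2 (0.769, against 1.06 to 1.11), and not by library totals.

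As the files hold FPKM and not counts, limma 3.58.1 (trend and robust, statmod 1.5.0, R 4.3.3) was run on log2(FPKM + 1) for 11884 genes (mean FPKM at least 1), with Benjamini-Hochberg adjustment over them. Fold changes on this scale understate changes of low genes. SDs and ratios used log2 FPKM with no pseudocount (numpy 2.4.6, pandas 2.3.3, scipy 1.17.1, matplotlib 3.10.9). The computation was tested on simulated data without an outlying library, so that test does not cover a library like control replicate 2. Sequence sharing was measured over 31-base sequences of all transcripts. Intervals on reads cover counting error only.

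The members, the 7 lists and the tests were chosen with earlier results of these data known. Genes named are the 10 members, the 2 with the smallest p and the 2 with the largest mean FPKM of each list, the 5 steadiest genes, the 3 most like Actb and the 3 most like Lmnb1, and Cyp1a1. Pseudogenes, genes that overlap or share sequence, and cell type markers were named beside them. Alternatives were another pseudocount, no filter, other scalings, voom on recovered reads, the replicate number as a block and leaving out each library.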

Additional observations from a re-analysis of the deposited data

How the results depend on the processing

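Each alternative was run on the calls over all genes, the calls and log2 fold changes of the 10 members, or their spread, as fitted. The count of members called stayed at 0 in every fit not scaled to a member. Of all genes 11 were called, against 9 with a pseudocount of 0.1, 10 after quantile normalization, 11 with no fold change threshold, 0 with no filter, 6 when scaled to the recovered total reads and 0 with voom. Scaling to one gene gave 2 (Actb, Tbp and Vim), 4 (Tubb5 and Ppia) or 0 (Actg1, Gapdh, Tuba1b, Lmnb1 and Lmna), and scaling to all 10 members gave 2. Leaving out one library gave 0 to 84 called genes, with 84 without control replicate 2. Scaling to a member and leaving out that library together, chosen after seeing the data, gave 101 called genes for Actb, 86 for Actg1, 281 for Gapdh, 126 for Tubb5, 167 for Tuba1b, 10 for Ppia, 29 for Tbp, 59 for Lmnb1, 0 for Lmna, 125 for Vim and 84 for all 10 members. Deviations from the group means correlated at r = -0.28, 0.18 and 0.25 for libraries of the same number, and at -0.28 to 0.29 for different numbers. Control replicates 1 and 3 had the opposite sign to control replicate 2 with each PM2.5 library. The correlations thus follow control replicate 2 and cannot show or exclude pairing. The numbers were not taken as pairs, and the replicate block gave 0 called genes, with 335 at an unadjusted p under 0.05 in limma. The log2 fold change turned positive after quantile normalization for Lmna (0.0266) and Vim (0.17). With each library left out it ranged from -1.02 to 0.0288 for Actb, -0.12 to 1.35 for Actg1, -3.20 to 0.39 for Gapdh, -0.10 to 0.27 for Tuba1b, -0.24 to 0.21 for Lmnb1, -0.37 to 0.17 for Lmna, -0.48 to 0.25 for Vim, -0.64 to -0.14 for Ppia, -0.41 to -0.19 for Tbp and 0.02 to 0.28 for Tubb5. The SD of log2 FPKM ranged from 0.0697 to 0.915 for Actb, 0.0769 to 1.28 for Actg1, 0.34 to 3.24 for Gapdh, 0.15 to 0.32 for Tuba1b, 0.17 to 0.39 for Lmnb1, 0.29 to 0.53 for Lmna and 0.17 to 0.61 for Vim. Scaled to total reads it was 0.43 for Tuba1b and 0.49 for Lmnb1, above Lmna (0.36), Ppia (0.39) and Vim (0.40). The order of the genes over 6 libraries thus also depended on the scaling. M ranged from 0.24 to 1.16 for Actb, 0.24 to 1.83 for Actg1, 0.41 to 3.21 for Gapdh, 0.29 to 0.89 for Tubb5, 0.28 to 1.00 for Tuba1b, 0.50 to 0.99 for Ppia, 0.35 to 0.89 for Tbp, 0.29 to 1.05 for Lmnb1, 0.37 to 0.96 for Lmna and 0.29 to 0.97 for Vim. Why control replicate 2 stands apart was not tested.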
